A study of Oryctolagus cuniculus with 34 samples.

Results

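FBLN7 (ENSOCUG00000002898), SMOC1 (ENSOCUG00000012811) and CYP1B1 (ENSOCUG00000016164) are 3 of the 23669 genes counted in rabbit supraspinatus, a rotator cuff muscle, after its tendon was cut and later repaired. They were chosen by their measured values in an earlier analysis of these data, as genes with large rises over control muscle, FBLN7 at 1 week post-repair and SMOC1 and CYP1B1 at 2 weeks. Those contrasts are therefore given below as descriptions with no test, and the 3 genes are tested only at the other time points. The limma-voom fit shares its estimate of the spread over all groups. Its standard errors and p-values at the other time points thus also draw on the libraries that chose the gene. The earlier analysis took the differentially expressed (DE) genes with a symbol and a mean level of at least 1 on the log2 CPM scale. The lowest repair library also had to exceed the highest control, and the top 3 by log2 fold change (log2FC) were kept. The mean level was taken over all 33 libraries, so every time point entered this filter. It was 3.22 for FBLN7, 1.18 for SMOC1 and 1.43 for CYP1B1, with SMOC1 and CYP1B1 near the minimum. At 1 week FBLN7 led at 5.71, the last gene kept was SCD at 3.22 and the first left out was S100A13 at 2.87. At 2 weeks SMOC1 led at 4.85, CYP1B1 was the last kept at 3.43 and IGFBP4 the first left out at 3.14.

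Muscle came from 17 female New Zealand White rabbits, about 6 months old, whose left supraspinatus tendon was detached for 8 weeks and then repaired. The left muscle (repair) and the right muscle of the unoperated shoulder (control) of each rabbit were sequenced from the posterior lateral region, with 4 rabbits killed 1 week post-repair, 5 at 2 weeks, and 4 each at 4 and 8 weeks. The labels mention a sham skin cut, whereas the study's methods call the right shoulder unoperated, and every control shared an animal with an operated shoulder, so no muscle came from a rabbit without surgery. The left library of rabbit 3 (8 weeks) was left out, as it failed the study's read quality control, which leaves 33 libraries and 16 rabbits with both shoulders.

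Fibulin-7, the product of FBLN7, is a secreted glycoprotein of the extracellular matrix that carries domains shared with the other fibulins, several of which sit on elastic fibres. SMOC1 is a secreted calcium-binding protein of the SPARC family, found near basement membranes and known to antagonise bone morphogenetic protein (BMP) signalling. CYP1B1 is a cytochrome P450 mono-oxygenase that is expressed mainly outside the liver, is induced through the aryl hydrocarbon receptor (AHR) and metabolises oestradiol and retinoids.

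Total counts lay between 9220035 and 28395188 per library (median 12127768), and libraries of 1 and 8 weeks belong to one series of sample titles and those of 2 and 4 weeks to another, so that time point and title series cannot be told apart between these pairs. Values below are library-size-scaled counts (CPM) further scaled by TMM (trimmed mean of M-values), written TMM CPM, and the threshold for a DE gene was an adjusted p under 0.05 with an absolute log2FC over 1. The repair library of rabbit 59 (2 weeks) was the highest of its group in all 3 genes, and far above the rest in FBLN7 and SMOC1. The repair libraries of rabbits 60 and 64 (2 weeks) and 68 (4 weeks) stood near their controls in FBLN7. The muscle label was checked on myofibre genes, of which TNNT3, a fast troponin, had an average log2 CPM of 12.76 and MYOM2, an M-band protein, one of 11.41. These averages do not check each library. Summed, these genes were lowest in the repair library of rabbit 6 (1 week), at 566 TMM CPM against 9464 in its control. In bulk muscle, fewer cells of a type and less RNA per cell cannot be told apart.

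FBLN7 was low in control muscle at every time point and high in most repaired muscles. At 1 week the repair libraries of rabbits 5, 6, 7 and 8 held 48.5, 96.5, 131 and 88.9 TMM CPM and their controls 1.21, 2.05, 1.08 and 2.999. The groups were far apart, with means of 91.3 ± 34.1 (SD, n = 4) and 1.84 ± 0.886 TMM CPM (SD, n = 4). This is the contrast that chose the gene.

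At 2 weeks FBLN7 stood at 866, 2.73, 31.5, 152 and 1.33 TMM CPM in the repair libraries of rabbits 59, 60, 61, 62 and 64. The controls of the same rabbits held 6.34, 4.35, 3.20, 1.95 and 1.09. Rabbits 59, 61 and 62 were high, whereas rabbit 60 was lower on the left than on the right and rabbit 64 differed little, so the groups overlapped. The log2FC was 3.31 (SE 1.74, 95% interval -0.25 to 6.87) and FBLN7 was not DE (limma-voom adjusted p = 0.167). With the rabbit as a replicate block, which pairs the shoulders, the log2FC was 5.12 with an adjusted p of 0.00183 (limma-voom). Without the repair library of rabbit 59 the unblocked value was 2.12 (limma-voom adjusted p = 0.360), and without that of rabbit 64 it was 4.26 (limma-voom adjusted p = 0.0393).

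At 4 weeks the repair libraries of rabbits 63, 66, 67 and 68 held 70.0, 55.7, 21.2 and 2.15 TMM CPM of FBLN7 against 0.546, 0.224, 3.31 and 3.13 in the controls. Rabbit 68 was again the exception, slightly lower on the left. The log2FC of 4.14 (SE 2.69, 95% interval -1.36 to 9.65) did not pass the test (limma-voom adjusted p = 0.450). At 8 weeks rabbits 1, 2 and 4 held 51.3, 40.2 and 58.99 TMM CPM in repair muscle, and the controls of rabbits 1, 2, 3 and 4 held 7.25, 5.02, 4.21 and 9.92. Every repair library lay above every control, yet the log2FC of 2.96 (SE 1.40, 95% interval 0.10 to 5.81) had an adjusted p of 0.999 (limma-voom).

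Outside the contrasts that chose a gene, for which it was required, repair libraries did not overlap controls for FBLN7 at 8 weeks, for SMOC1 at 1 and 8 weeks and for CYP1B1 at 4 weeks. Over all 12937 genes tested, 16.1% had every repair library above every control at 1 week, and the shares at 2, 4 and 8 weeks were 4.1%, 5.19% and 4.24%. DE genes higher in repair made up 4.72% of the genes tested at 1 week, and 4.82%, 0.0618% and 0.00773% of them at 2, 4 and 8 weeks. DE genes lower in repair made up 1.44%, 0.951%, 0% and 0% of them, so that the limma-voom call at 4 and 8 weeks was met by almost no gene. At an unadjusted p under 0.05, 2058 genes passed in either direction at 4 weeks and 397 at 8 weeks. At 4 weeks edgeR called 195 genes DE and higher and 32 lower, and DESeq2 339 and 52, and at 8 weeks edgeR called 1 and 0 and DESeq2 3 and 2.

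**Figure D1:**
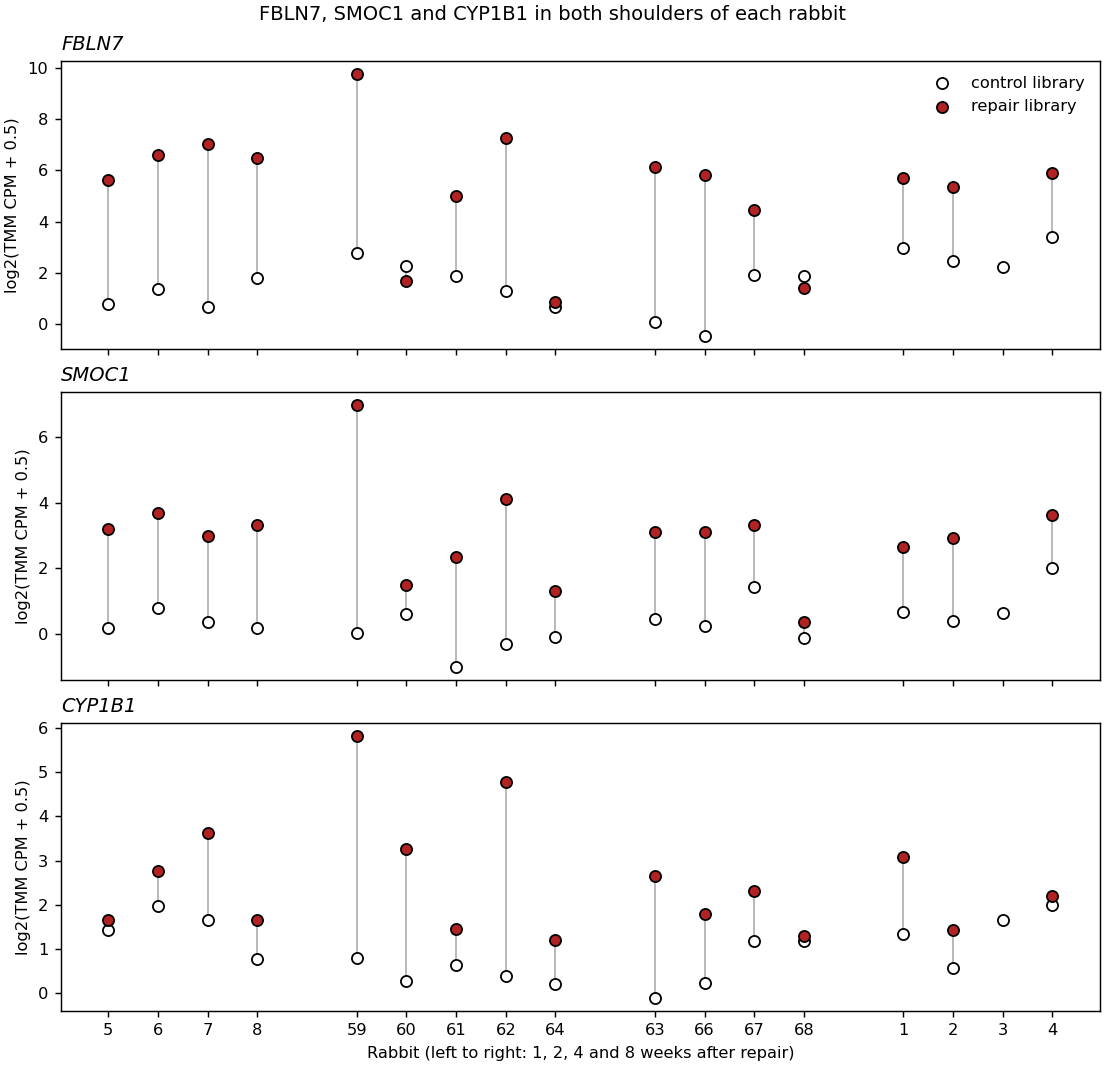
Level of FBLN7, SMOC1 and CYP1B1 in each library as log2(TMM CPM + 0.5), with the rabbits of 1, 2, 4 and 8 weeks post-repair from left to right. Filled circles are repair and open circles control libraries, and a line joins the shoulders of a rabbit; outside the time points that chose them, SMOC1 and CYP1B1 were higher on the left in 11 of 11 rabbits with both libraries, and FBLN7 in 10 of 12.

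SMOC1 was a low-count gene in control muscle, with 0 to 82 expected counts per library. At 1 week the repair libraries of rabbits 5, 6, 7 and 8 held 8.73, 12.4, 7.35 and 9.43 TMM CPM against 0.641, 1.22, 0.786 and 0.643 in their controls. The repaired muscles were tightly grouped and clear of the controls, with means of 9.48 ± 2.14 (SD, n = 4) and 0.822 ± 0.273 TMM CPM (SD, n = 4). The log2FC was 3.48 (SE 1.25, 95% interval 0.92 to 6.05) with an adjusted p of 0.0593 (limma-voom), just short of the threshold. In the fit with the replicate block the log2FC was 3.45 and the adjusted p 0.00131 (limma-voom).

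At 2 weeks, the time point that chose the gene, SMOC1 stood at 125, 2.32, 4.57, 16.6 and 1.99 TMM CPM in the repair libraries of rabbits 59, 60, 61, 62 and 64. Their controls held 0.520, 1.04, 0, 0.308 and 0.436, and the count of 0 in rabbit 61 allows a level of up to 0.291 TMM CPM (3 counts, counting error only). The repair levels thus ran over a far wider range than at 1 week, and the lowest of them was still above the highest control. Without the repair library of rabbit 59 the log2FC of 4.85 became 3.78.

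At 4 weeks the repair libraries of rabbits 63, 66, 67 and 68 held 8.07, 8.05, 9.53 and 0.783 TMM CPM of SMOC1 and the controls 0.874, 0.673, 2.17 and 0.417. As for FBLN7, 3 of the rabbits were high and rabbit 68 was not. The log2FC was 2.45 (SE 1.58, 95% interval -0.78 to 5.69, limma-voom adjusted p = 0.447). At 8 weeks rabbits 1, 2 and 4 held 5.78, 7.13 and 11.7 TMM CPM in repair muscle, and rabbits 1, 2, 3 and 4 held 1.10, 0.808, 1.06 and 3.50 in control muscle. The groups did not overlap, and the log2FC was 2.496 (SE 1.11, 95% interval 0.23 to 4.76, limma-voom adjusted p = 0.999).

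CYP1B1 differed least between the shoulders of most rabbits and was also counted sparsely, with 4 to 81 expected counts in control libraries. At 1 week the repair libraries of rabbits 5, 6, 7 and 8 held 2.65, 6.33, 11.9 and 2.66 TMM CPM and the controls 2.21, 3.44, 2.66 and 1.21. Rabbit 7 was the highest, and the lowest repair libraries lay within the control range. The log2FC was 1.11 (SE 0.84, 95% interval -0.61 to 2.83) and did not pass the test (limma-voom adjusted p = 0.361). With the replicate block it was 1.34 with an adjusted p of 0.0319 (limma-voom).

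At 2 weeks, the time point that chose it, CYP1B1 stood at 55.8, 9.09, 2.24, 27.0 and 1.82 TMM CPM in the repair libraries of rabbits 59, 60, 61, 62 and 64 against 1.25, 0.725, 1.07, 0.822 and 0.654 in the controls. Rabbits 59 and 62 were the highest, as for the other two genes, but rabbit 60, whose FBLN7 was not raised, came next. Without the repair library of rabbit 59 the log2FC of 3.43 became 2.71.

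At 4 weeks CYP1B1 held 5.78, 2.97, 4.44 and 1.96 TMM CPM in the repair libraries of rabbits 63, 66, 67 and 68, and 0.437, 0.673, 1.76 and 1.77 in the controls. The groups did not overlap, by a narrow margin in rabbit 68, and the log2FC was 1.76 (SE 1.39, 95% interval -1.08 to 4.60, limma-voom adjusted p = 0.542). At 8 weeks the repair libraries of rabbits 1, 2 and 4 held 7.93, 2.21 and 4.10 TMM CPM against 2.04, 0.981, 2.66 and 3.46 in the controls of rabbits 1, 2, 3 and 4. These groups overlapped, with a log2FC of 0.87 (SE 0.96, 95% interval -1.08 to 2.83, limma-voom adjusted p = 0.999).

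**Figure D2:**
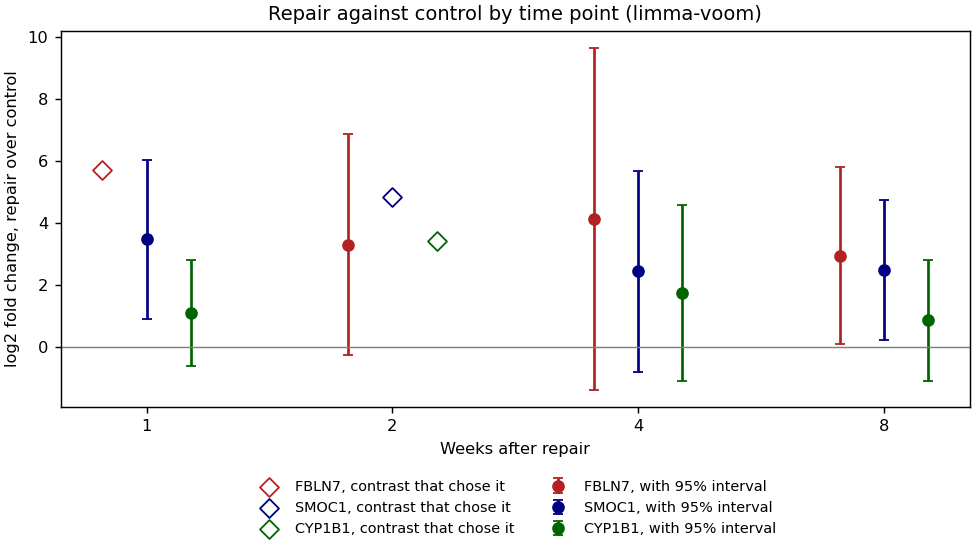
Log2 fold change of repair over control at 1, 2, 4 and 8 weeks post-repair for the 3 genes. Filled circles carry the 95% interval of the limma-voom fit, and open diamonds mark the contrasts that chose a gene, drawn with no interval; the tested values are all above 0, and among them the intervals of SMOC1 at 1 and 8 weeks and of FBLN7 at 8 weeks do not reach 0.

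When each repaired muscle was compared with the control of its own rabbit, the left side was the higher one in most of the rabbits that did not choose the gene. The measure was the left minus right difference in log2(TMM CPM + 0.5). Over the 12 rabbits of 2, 4 and 8 weeks, FBLN7 had a mean difference of 3.18 ± 2.66 (SD) on the log2 scale and was higher on the left in 10 of 12 (exact two-sided sign-flip permutation test, p = 0.00342, adjusted p = 0.0226). The same test called 15.3% of all genes higher on the left. Without rabbit 59 the mean was 2.84 (exact permutation, adjusted p = 0.0425).

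Over the 11 rabbits of 1, 4 and 8 weeks, the mean difference was 2.33 ± 0.785 (SD) for SMOC1 and 1.11 ± 0.825 (SD) for CYP1B1, both higher on the left in 11 of 11. The exact two-sided sign-flip permutation test gave p = 0.000977 for both, the smallest value 11 rabbits allow, and an adjusted p of 0.0148. It called 17.3% of all genes higher on the left. These rabbits also entered the mean level filter that SMOC1 and CYP1B1 had to pass, so the test is not wholly free of the choice. The difference of SMOC1 varied little between rabbits at these ends of the time course, as it lay between 2.61 and 3.12 at 1 week and between 1.61 and 2.54 at 8 weeks. For CYP1B1 the difference at 1 week ran from 0.22 to 1.97, and at 8 weeks from 0.21 to 1.73.

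The repair effect was also compared between time points of the same title series that had not chosen the gene. For FBLN7 the effect at 4 weeks exceeded that at 2 weeks by 0.83 on the log2 scale (SE 3.20, 95% interval -5.73 to 7.38, limma-voom adjusted p = 1.00), an interval too wide to tell a rise from a fall. The direction turned with the replicate block (-0.80), with edgeR (-1.61) and with DESeq2 (-1.62). SMOC1 had an effect 0.99 lower at 8 weeks than at 1 week, written as -0.99 (SE 1.67, 95% interval -4.41 to 2.44, limma-voom adjusted p = 0.897), and CYP1B1 one of -0.23 (SE 1.27, 95% interval -2.84 to 2.37, limma-voom adjusted p = 0.968). These contrasts called 0% of the genes (0 at 4 against 2 weeks and 0 at 8 against 1 week), with 359 and 683 genes at an unadjusted p under 0.05. Called DE in the same contrasts were 0 and 0 genes by edgeR and 1 and 3 by DESeq2.

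Each time point was a different set of rabbits, so the group means below are ordered by size and do not follow a muscle over time. In repair muscle FBLN7 averaged 211 ± 371 TMM CPM at 2 weeks (SD, n = 5), 91.3 ± 34.1 at 1 week (n = 4), 50.2 ± 9.43 at 8 weeks (n = 3) and 37.3 ± 31.1 at 4 weeks (n = 4). The 2-week mean rests on rabbit 59, and the median of that group, 31.5, was below the medians of the other 3 time points (92.7, 51.3 and 38.5 at 1, 8 and 4 weeks). SMOC1 averaged 30.1 ± 53.5 TMM CPM at 2 weeks, 9.48 ± 2.14 at 1 week, 8.21 ± 3.13 at 8 weeks and 6.61 ± 3.94 at 4 weeks. Here too the 2-week mean rests on rabbit 59, and the median of that group, 4.57, was the lowest of the 4 (9.08, 7.13 and 8.06 at 1, 8 and 4 weeks). The means of CYP1B1 were 19.2 ± 22.9, 5.88 ± 4.36, 4.75 ± 2.92 and 3.78 ± 1.67 TMM CPM at 2, 1, 8 and 4 weeks, and the medians, 9.09, 4.49, 4.10 and 3.70, kept that order. Neighbouring means in each of these orders lay within the SD of at least one of the groups, except for FBLN7 between 1 and 8 weeks, where the lowest library of 1 week (48.5) was still below the highest of 8 weeks (58.99).

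In control muscle FBLN7 averaged 6.60 ± 2.56 TMM CPM at 8 weeks (SD, n = 4), 3.39 ± 2.06 at 2 weeks (n = 5), 1.84 ± 0.886 at 1 week (n = 4) and 1.80 ± 1.64 at 4 weeks (n = 4). The lowest 8-week control (4.21) was above the highest 1-week control (2.999), libraries of the same title series. This was seen after the values were known and was not tested, and 2.9% of all genes had every 8-week control above every 1-week control. For SMOC1 the control means were 1.62 ± 1.26, 1.03 ± 0.782, 0.822 ± 0.273 and 0.460 ± 0.377 TMM CPM at 8, 4, 1 and 2 weeks, and for CYP1B1 they were 2.38 ± 0.928, 2.29 ± 1.05, 1.16 ± 0.706 and 0.903 ± 0.248 at 1, 8, 4 and 2 weeks (SD, with the same n). The 8-week controls of both genes overlapped those of 1 week.

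Rabbits with a large difference in FBLN7 tended to have one in SMOC1. Each rabbit's left minus right difference was taken about the mean of its time point, and 3 pairs of genes were compared. Over all 16 rabbits, which include those that chose the genes, r and rho are given with no test, and rabbits were permuted within time points only over the rabbits that chose neither gene of a pair, a set added after the data were seen. For FBLN7 with SMOC1, Pearson's r was 0.889 and Spearman's rho 0.788 over 16 rabbits, and r was 0.880 without rabbits 59 and 68, the farthest in FBLN7. Over the 7 rabbits of 4 and 8 weeks, r was 0.938 (exact permutation p = 0.00694, the smallest value they allow, adjusted over the 3 pairs 0.0208) and rho 0.893 (exact permutation p = 0.0139, adjusted 0.0417). Without rabbits 66 and 68, the farthest of these in FBLN7, r over the other 5 was 0.691 (exact permutation p = 0.167), where so few rabbits cannot reach the threshold. By title series, r was 0.917 among the 9 rabbits of 2 and 4 weeks and -0.322 among the 7 rabbits of 1 and 8 weeks, where both differences spanned a much smaller range. The difference between these values was not tested, and at 4 and 8 weeks each series had too few rabbits for a value of its own.

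The pairs with CYP1B1 had lower values over the 16 rabbits. For FBLN7 with CYP1B1, r was 0.707 and rho 0.744, with r = 0.724 among the 9 rabbits of 2 and 4 weeks and 0.730 among the 7 of 1 and 8 weeks, and r was 0.510 without rabbits 59 and 68. Over the 7 rabbits of 4 and 8 weeks, r was 0.780 (exact permutation p = 0.0972, adjusted 0.146) and rho 0.786 (exact permutation p = 0.139, adjusted 0.208), and without rabbits 66 and 68 r was 0.762 (exact permutation p = 0.333). For SMOC1 with CYP1B1, r was 0.640 and rho 0.559, with r = 0.702 over 9 rabbits and -0.135 over 7 within series, and 0.654 without rabbits 59 and 60. Over the 11 rabbits of 1, 4 and 8 weeks, r was 0.554 (permutation p = 0.207, adjusted 0.207) and rho 0.455 (permutation p = 0.248, adjusted 0.248), and without rabbits 66 and 68 r was 0.225 (exact permutation p = 0.628).

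**Figure D3:**
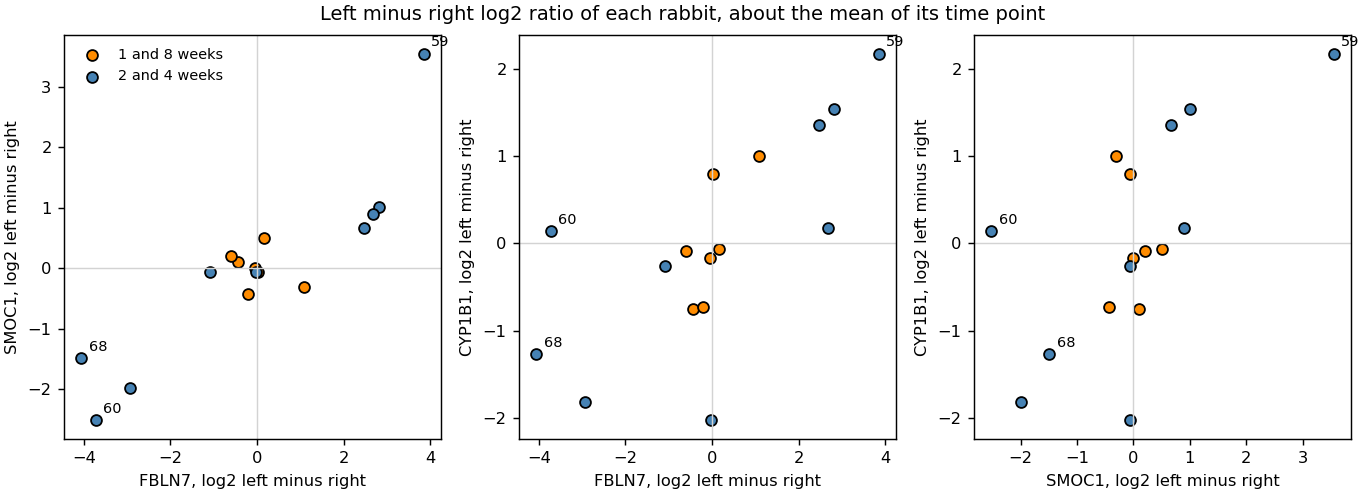
Left minus right difference in log2(TMM CPM + 0.5) of each rabbit, about the mean of its time point, for the 3 pairs of genes. Each point is 1 of 16 rabbits, coloured by title series (1 and 8 weeks, or 2 and 4 weeks), and rabbits 59, 60 and 68 are numbered; every rabbit that lies more than 2 from the mean in FBLN7 is one of 2 or 4 weeks.

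Over the 33 libraries, the genes whose log2(TMM CPM + 0.5) was most like that of FBLN7, out of 2735 with a symbol and an average log2 CPM of at least 1, were the following 6. The closest were THBS4 (thrombospondin-4, r = 0.946), FNDC1 (a fibronectin-domain protein, 0.938), OLFML2B (an olfactomedin-domain protein, 0.935), AEBP1 (a collagen-binding matrix protein, 0.930), MMP2 (a gelatinase, 0.929) and PXDN (peroxidasin, which cross-links collagen IV, 0.928). About the group means the r of these genes lay between 0.894 and 0.936, so the likeness was also there within groups. SMOC1 had an r of 0.910 with FBLN7, and 39 of the 9643 genes ranked, with or without a symbol, were closer. CYP1B1 had an r of 0.767 with FBLN7, and 629 genes were closer.

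For SMOC1 the closest genes were CCND2 (cyclin D2, r = 0.936), OGN (osteoglycin, a small leucine-rich proteoglycan, 0.935), AEBP1 (0.932), SLIT3 (a secreted guidance ligand, 0.930), CAP1 (an actin regulator, 0.930) and MAN1C1 (a Golgi mannosidase, 0.927). AEBP1 was the one gene in the lists of both FBLN7 and SMOC1. For CYP1B1 they were SRPX (a sushi-repeat protein, r = 0.932), DAB2 (an endocytic adaptor, 0.930), IGFBP4 (an IGF-binding protein, 0.915), SVEP1 (a large matrix adhesion protein, 0.902), PPT1 (a lysosomal thioesterase, 0.895) and ATP8B2 (a phospholipid flippase, 0.893), none of which was in the other lists. These correlations are descriptions over libraries that share rabbits and groups.

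Genes related to the 3 by family or pathway were also counted, on lists chosen with earlier results known. Symbols came from the study's tables of its own results, which cover 3307 tested genes besides FBLN7, SMOC1 and CYP1B1, so these lists hold only part of each family. Of 48 related genes, 6 were DE at 1 week and 11 at 2 weeks, all higher in repair, 0 at either later time, and 12 were DE at one time point or more. At an unadjusted p under 0.05 there were 9 at 4 weeks and 2 at 8 weeks. By edgeR the DE genes of these lists numbered 4, 26, 2 and 0 at 1, 2, 4 and 8 weeks, and by DESeq2 7, 26, 3 and 0, so that the number at 2 weeks depends on the tool. By limma-voom, 5.38%, 8.01%, 0.0907% and 0% of all tested genes with a symbol were DE and higher at 1, 2, 4 and 8 weeks. Of the 12933 genes that edgeR tested, with or without a symbol, 599, 1898, 195 and 1 were DE and higher at these times. DESeq2 called 782, 1912, 339 and 3 of 12933. The median log2FC of the 48 was 0.80, 0.92, 0.40 and 0.07 at 1, 2, 4 and 8 weeks, against 0.08, 0.15, 0.09 and 0.02 over the genes with a symbol. It was 0.80, 0.92, 0.40 and 0.07 also with GREM1 at 2 weeks and CRABP1 at 4 weeks, whose controls were all at 0, set at their lower bounds.

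In the limma-voom fit, 1 of 4 fibulins other than FBLN7, EFEMP1 (fibulin-3), was DE at 2 weeks with a log2FC of 1.93 (SE 0.53, limma-voom adjusted p = 0.0211). The others had values of 0.82 to 2.25 at that time, the highest that of FBLN1, with FBLN7 at 3.31. By edgeR and by DESeq2 all 4 were DE at 2 weeks and 1 at 4 weeks. Of 9 elastic fibre genes, limma-voom called 2 DE at 1 week and 4 at 2 weeks, whereas edgeR called 2 and 8 and DESeq2 3 and 8. MFAP4, a microfibril-associated protein, had the largest values (2.33 at 1 week and 2.73 at 2 weeks), and LTBP1, which tethers latent TGF-beta to the matrix, rose by 1.91 and 1.29. LTBP2 (2.56) and the microfibril gene FBN1 (1.58) were DE at 2 weeks.

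Of 5 SPARC family genes other than SMOC1, SPARC itself (log2FC 1.56) and FSTL1 (1.64) were DE at 2 weeks and none was at 1 week by limma-voom, where the values ran from -0.75 for SPOCK3 to 1.77 for SPARC, with SMOC1 at 3.48. At 1 week edgeR called 0 and DESeq2 1 of the 5, and at 2 weeks both called 3. The closest relative, SMOC2, was at 1.12 (SE 0.52, limma-voom adjusted p = 0.131) at 1 week and 0.92 (SE 0.47, limma-voom adjusted p = 0.157) at 2 weeks.

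Among BMP pathway genes, the ones called in the limma-voom fit were antagonists. Of 3 described here, CHRDL1 (chordin-like 1) was at 1.54 at 1 week and 2.13 at 2 weeks, DE at both. GREM1 (gremlin 1), a gene of very low level, was DE at both too and had a log2FC of 1.93 at 1 week. At 2 weeks GREM1 was at 0 in all 5 controls and averaged 0.592 ± 0.729 TMM CPM in repair (SD, n = 5). That mean was at least 1.91-fold higher than 3 counts per control library, or 0.310 TMM CPM. It rests on repair libraries at 1.78 and 0.822, as the others, at 0.101, 0.0972 and 0.166, lay below that level. TWSG1 was not DE (0.31 and 0.47). By edgeR and by DESeq2, 1 of the 3 antagonists was DE at 1 week and 2 at 2 weeks. The 5 genes of the ligand list were BMP3, BMP5 and BMP6, besides BMP1, which is a protease, and INHBA, an activin subunit. This list had 0 DE members, with a median log2FC of 0.86 at 1 week and 0.93 at 2 weeks. The 6 receptors and co-receptors had 0, with medians of 0.01 and 0.21. The 4 transducers and targets had 0 as well, with medians of -0.20 and -0.04. Of these 15 genes, 2 at 1 week and 5 at 2 weeks had an unadjusted p under 0.05 by limma-voom. Over all 12937 genes tested, 4302 and 4622 did at these times. By edgeR and by DESeq2, 4 of the 5 genes of the ligand list were DE at 2 weeks, so this list is called or not with the tool. ACVR2A, a type II receptor, had an adjusted p of 0.0269 at 2 weeks but a log2FC of only 0.71 (limma-voom).

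Around CYP1B1, few AHR pathway genes are described. NFE2L2, a stress-response transcription factor, was at 0.53 at 1 week (limma-voom adjusted p = 0.0230), under the fold threshold. Of 5 other P450 genes, by limma-voom CYP27A1 (sterol 27-hydroxylase) was DE at 1 week (1.94) and CYP7B1 (oxysterol 7-alpha-hydroxylase) at 2 weeks (2.20). CYP27C1, a retinoid desaturase, was DE at both (2.11 and 3.09). Of these 5, edgeR called 1 DE at 1 week and 3 at 2 weeks, and DESeq2 2 and 3. The 6 retinoid genes had 0 DE members by limma-voom, and 2 at 2 weeks by edgeR and by DESeq2. Their log2FC ran from -0.69 for ALDH1A1 to 2.57 for CRABP1 at 1 week. At an unadjusted p under 0.05 by limma-voom, 2 and 3 of them passed at 1 and 2 weeks, against 4302 and 4622 of the 12937 genes tested.

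**Figure D4:**
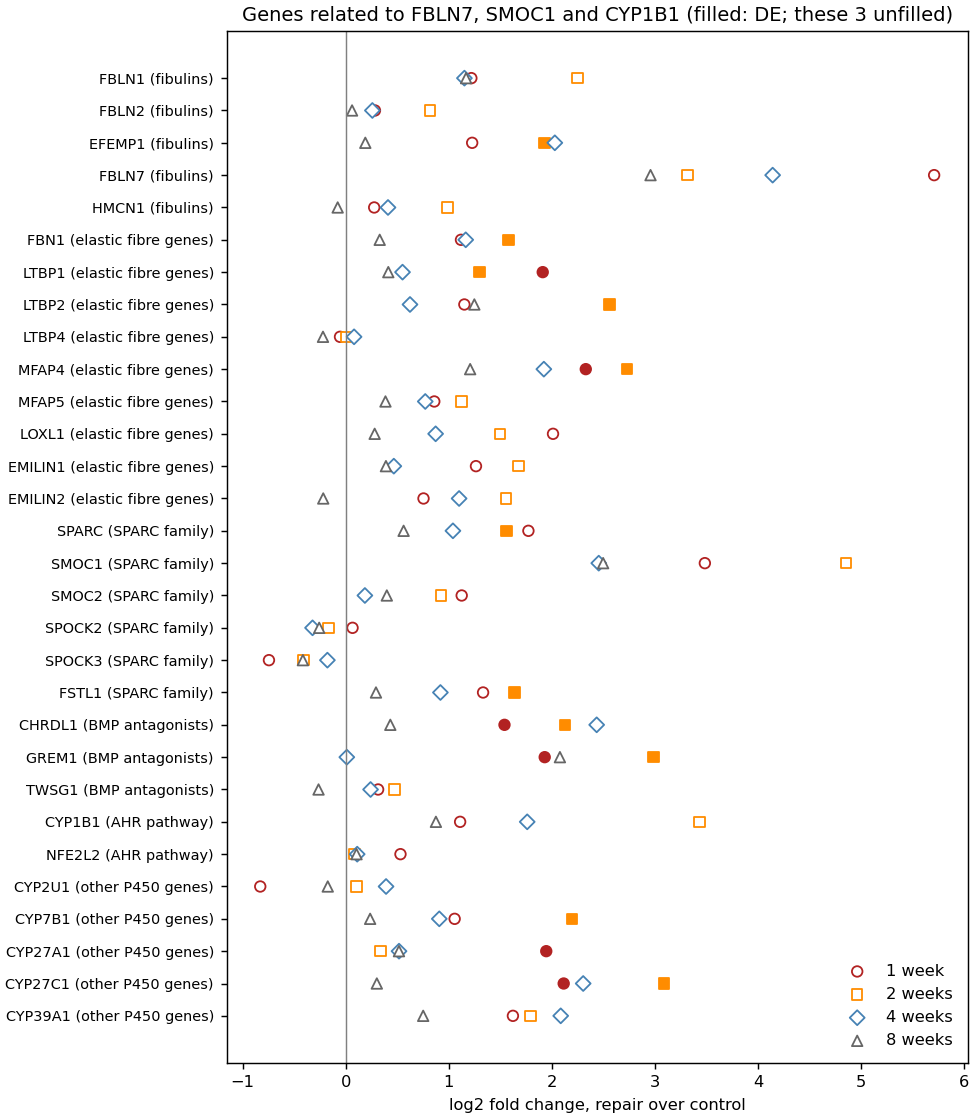
Log2 fold change of repair over control for the genes of 6 related lists (fibulins, elastic fibre genes, SPARC family, BMP antagonists, AHR pathway and other P450 genes), with 1 marker per time point. Filled markers are DE by limma-voom and FBLN7, SMOC1 and CYP1B1 are left unfilled, and the 2-week marker of GREM1 is a fitted value over controls all at 0; outside the contrasts that chose them, FBLN7 lies to the right of the other fibulins at 2, 4 and 8 weeks and SMOC1 to the right of the other SPARC family genes at 1, 4 and 8 weeks.

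Every measured marker list other than the myofibre list had a positive r with each of the 3 genes across rabbits, whereas the myofibre list had a negative r with them. The summed level of 13 fibroblast and fibro-adipogenic markers, led by COL3A1, DCN and COL1A2, ran from 812 to 64785 TMM CPM in repair libraries and from 723 to 3973 in controls. That of 6 tendon and cartilage markers, led by CILP, THBS4 and KERA, ran from 34.2 to 2655 in repair and from 37.9 to 289 in controls. By limma-voom 1 of the 13 fibroblast genes was DE and higher at 1 week and 6 at 2 weeks, against 5.38% and 8.01% of the tested genes with a symbol. By edgeR these were 5 and 13, and by DESeq2 8 and 13. Of all 12933 genes tested, edgeR called 599 and 1898 DE and higher at 1 and 2 weeks, and DESeq2 782 and 1912. THBS4 and OGN, listed above as like FBLN7 and SMOC1, belong to these lists.

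The left minus right log2 ratio of the summed fibroblast markers was 5.41 in rabbit 59 and 4.29 in rabbit 62, and it was 0.27, -0.26 and -0.22 in rabbits 60, 64 and 68, the rabbits with little or no difference in FBLN7. About time point means, the ratio of this list had an r of 0.917 with FBLN7, 0.874 with SMOC1 and 0.873 with CYP1B1 over 16 rabbits, and that of the tendon list 0.930, 0.919 and 0.783. The 7 macrophage and leukocyte markers, led by MRC1, CSF1R and C1QC, had 0.835, 0.786 and 0.915, and the 2 myofibre markers -0.503, -0.420 and -0.263. The summed level ran from 3.94 to 484 TMM CPM in repair and from 6.17 to 62.01 in controls for the leukocyte list, and from 566 to 16809 and from 7259 to 24008 for the myofibre list. CYP1B1 thus had its highest r with the leukocyte list, and FBLN7 and SMOC1 theirs with the tendon list. These are descriptions without a test, over ratios that share libraries, and the part of these cell types in the results was not tested.

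The difference of FBLN7 between the shoulders was larger than the ratio of the markers in most rabbits. It exceeded the ratio of the summed fibroblast markers in 14 of 16 rabbits, by 1.97 ± 1.34 on the log2 scale (SD, n = 16), and that of the tendon list in 14 of 16, by 1.62 ± 1.27. For SMOC1 these figures were 14 of 16 (0.92 ± 0.82) and 12 of 16 (0.58 ± 0.81), and for CYP1B1 7 of 16 (-0.09 ± 1.07) and 5 of 16 (-0.44 ± 1.38). Since the rabbits that chose each gene are among the 16, no test was made.

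Endothelial, pericyte and adipocyte markers were also compared with the 3 genes. The 3 endothelial markers (VWF, CDH5 and TEK) ran from 110 to 629 TMM CPM in repair and from 126 to 256 in controls, and had an r of 0.466 with FBLN7, 0.689 with SMOC1 and 0.560 with CYP1B1. The 5 pericyte and smooth muscle markers, led by ACTA2, PDGFRB and NOTCH3, ran from 118 to 598 and from 154 to 292, with r of 0.775, 0.800 and 0.559. The 2 adipocyte markers, ADIPOQ and LIPE, ran from 122 to 915 and from 74.8 to 257, with r of 0.799, 0.800 and 0.524. None of the 5 Schwann cell markers listed had a symbol here.

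**Figure D5:**
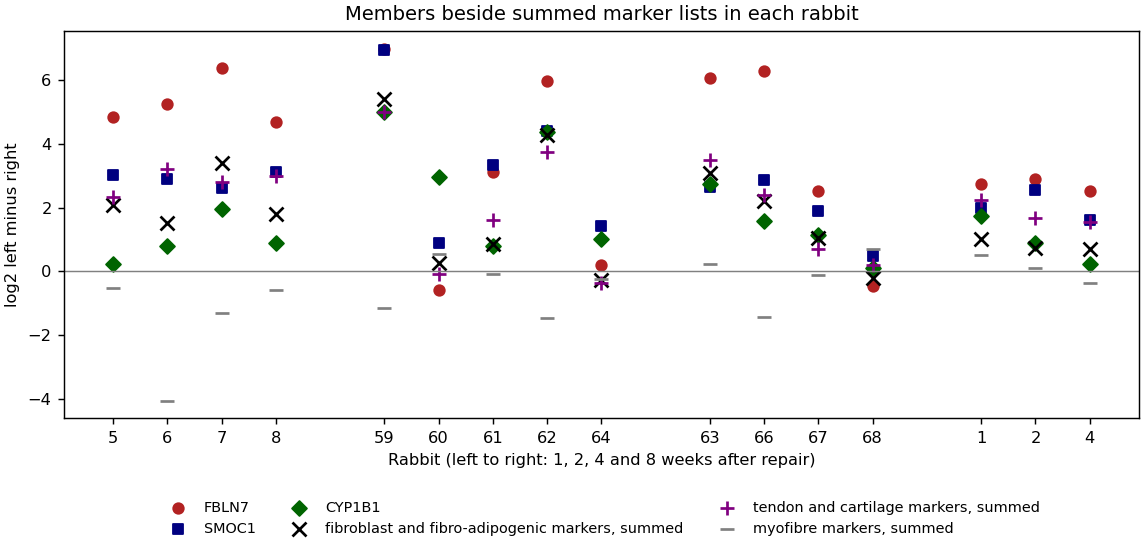
Left minus right log2 difference of FBLN7, SMOC1 and CYP1B1 in each of 16 rabbits, beside the log2 ratio of the summed fibroblast, tendon and myofibre markers. Rabbits stand in order of 1, 2, 4 and 8 weeks post-repair; the genes and the fibroblast and tendon lists are all high in rabbits 59 and 62, and the fibroblast list is near 0 in rabbits 60, 64 and 68.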

How the data were processed

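Per the study's methods, reads of stranded mRNA libraries were aligned with STAR to the rabbit assembly OryCun2.0 and counted with RSEM on Ensembl genes, and the authors deposited unscaled expected counts per gene for 34 libraries, with 0 columns unused here. The genes, lists and tests were chosen with earlier results of these data known. The left library of rabbit 3 was left out. Genes with CPM over 1 in at least 1 library (12937) entered a limma-voom fit after TMM scaling, with 1 coefficient for each of 8 groups (limma 3.58.1, edgeR 4.0.16, R 4.3.3), with Benjamini-Hochberg adjustment over all genes. For edgeR's quasi-likelihood test and DESeq2 1.42.0 expected counts were rounded. The script was tested on simulated data. Log2 levels used TMM CPM + 0.5, and pseudocounts shrink the differences of low genes. The sign-flip permutation test was run on every gene, and correlations were permuted within time points (SciPy 1.17.1); over all 16 rabbits they were planned with a test, and are given without one because those rabbits include the ones that chose the genes.

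Shoulders are paired by the animal: across genes, the residuals of both shoulders of a rabbit about their group means had an r of -0.00462 to 0.474 (median 0.277), and in 14 of 16 rabbits no control of the time point was closer than the rabbit's own. No libraries were duplicates (highest r 0.995). Symbols for 3310 genes came from the study's supplementary tables, whose fold changes and p-values were not used. Named were the 3 genes, DE members of the related lists, and the 6 genes most like each of the 3. The 3 most abundant markers of each list and all genes of the ligand list were named too. Others stand out by range or were picked after their values were seen (FBLN1, TWSG1, SMOC2, SPOCK3, ACVR2A, NFE2L2, ALDH1A1 and CRABP1). Some genes of the related lists are not reported here and are not in their counts. Gene coordinates and sequences were not used here.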

Additional observations from a re-analysis of the deposited data

Results flagged for a closer look

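Of 21 groups of 4 or 5 libraries examined for a library standing apart from the rest, 4 had one by Dixon's criterion on unlogged TMM CPM. Chance meets it in about 1 in 20 groups of normally distributed values, a rate that need not hold for such skewed levels. The repair library of rabbit 59 at 2 weeks was far above the other 4 in FBLN7 (866 TMM CPM) and in SMOC1 (125 TMM CPM). The repair library of rabbit 68 at 4 weeks was far below the other 3 in SMOC1 (0.783 TMM CPM). The control library of rabbit 4 at 8 weeks was far above the other 3 controls in SMOC1 (3.50 TMM CPM).

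The left library of rabbit 3 at 8 weeks was left out except where its inclusion is stated. It held 10.96 CPM of FBLN7 and 17.0 CPM of SMOC1 on library totals, against at most 9.84 and 3.48 CPM in the 8-week controls. It had 96 and 149 expected counts of these genes. CYP1B1 went the other way, with 4 expected counts (0.457 CPM) against at least 0.851 CPM in the 8-week controls.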

How the results depend on the processing

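Of 376 alternative values of the results on FBLN7, SMOC1 and CYP1B1, 346 were counted as the same, 21 newly passed the threshold, 1 no longer did and 8 changed sign. The causes were not tested. Where a test was made, the same meant an unchanged direction and side of the threshold. The contrasts that chose a gene have no threshold. There it meant an unchanged direction and a shift smaller than the SD of the left minus right differences between rabbits. FBLN7 at 2 weeks passed with edgeR (log2FC 5.96, adjusted p = 0.00131), DESeq2 (5.97) and the replicate block (5.12), and ran from 2.12 to 4.26 with each library left out in turn. FBLN7 passed at 4 weeks with DESeq2 (4.35) and at 8 weeks with that time point alone (2.95). SMOC1 at 1 week passed with edgeR (3.50), DESeq2 (3.51), the replicate block (3.45), duplicateCorrelation (3.48), quality weights (3.44) and the time point alone (3.47), and with quality weights also at 4 weeks (3.05) and 8 weeks (2.38). CYP1B1 at 1 week passed with the replicate block (1.34). The replicate block changed no other call. The 4-week minus 2-week effect of FBLN7 was negative with edgeR (-1.61), DESeq2 (-1.62) and the replicate block (-0.80), and ran from -0.12 (without the repair library of rabbit 64) to 2.02 with a library left out; the 8-week minus 1-week effect of CYP1B1 ran from -0.59 to 0.22, changing sign without repair rabbits 2 or 7 or control rabbits 4 or 8. With rabbit 3 included, the mean left minus right difference of CYP1B1 was 0.91 (exact permutation, adjusted p = 0.0539). Over all rabbits, those that chose the genes included, r is a description without a test. For FBLN7 with CYP1B1 it was higher or lower with a pseudocount of 2 (0.744), library totals (0.761), repair libraries alone (0.735) and rabbit 3 included (0.674). For SMOC1 with CYP1B1 the values included those with a pseudocount of 2 (0.739) and repair libraries alone (0.721). These 4 and 2 values are among the 21 counted as newly passing, by an adjusted permutation p under 0.05. As the rabbits that chose the genes are in them, they are not read as passing a test. DE genes numbered 797 at 1 week (251 with all 34 libraries, 1506 with the block, 1552 with quality weights), 747 at 2 weeks (304 with all libraries, 2000 with edgeR, 2029 with DESeq2, 1822 with the block, 245 with weights, 5 with the time point alone), 8 at 4 weeks (5 with all libraries, 39 with no filter, 227 with edgeR, 391 with DESeq2, 236 with the block, 92 with duplicateCorrelation, 464 with weights, 0 alone) and 1 at 8 weeks (3 with no filter, 0 with the minimum in 5 libraries, 5 with DESeq2, 52 with weights). Low counts limit the values of SMOC1 and CYP1B1 in control muscle, and groups of 3 to 5 rabbits limit every time point.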
